A study of Homo sapiens with 6 samples.

Results

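TENT5C and its relatives are enzymes that add nucleotides to the 3′ ends of RNA. The set described here held 10 genes: the TENT5 genes TENT5A, TENT5B and TENT5C, the cytoplasmic polymerase gene TENT2, the nuclear polymerase genes TENT4A and TENT4B, the canonical poly(A) polymerase genes PAPOLA and PAPOLG, the mitochondrial polymerase gene MTPAP and the uridylyltransferase gene TUT7. They were found by symbol among the 61806 Ensembl gene IDs of the count table, and all 10 were present. The set was chosen by the measured fold change of TENT5C, whose level was lower in ethacrynic acid libraries of these data, so its own values are given as a description with no test. The other genes were taken as its relatives, with the results of these data already known. Of the 10 genes, 9 passed the filter on low counts, as did 19611 genes of the whole table, and TENT5B did not.

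The libraries came from U937, a human leukaemia line with monocytic features that the labels list as AML. There were 3 libraries of cells given ethacrynic acid, a thiol-reactive loop diuretic, and 3 of control cells given the vehicle DMSO. Titles name day 3 and the treatment note names 2 days of exposure. A dose was not given in the sources used here. All libraries come from 1 cell line and from no stated separate cultures, so the spread between them may be technical, and so may what each p-value measures.

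Newly made mRNAs receive a poly(A) tail in the nucleus, from the canonical polymerases acting with the cleavage machinery. The tail is then shortened by deadenylases, and short-tailed mRNAs are uridylated, decapped and degraded. Noncanonical polymerases can lengthen or protect tails afterwards. TENT5C is a cytoplasmic one, known as a tumour suppressor of multiple myeloma and as an enzyme that sustains immunoglobulin mRNAs in plasma cells. In mouse macrophages TENT5A and TENT5C act on mRNAs of secreted proteins of innate immunity.

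TENT5C (ENSG00000183508) lies on the forward strand of chromosome 1 at 117605934 to 117628372 in GENCODE 29 on GRCh38, with 1 annotated transcript in 2 exons. TENT5A (ENSG00000112773), the other TENT5 gene with a substantial level here, lies on the reverse strand of chromosome 6 at 81491439 to 81752774, with 5 annotated transcripts. Their promoter windows are shown because TENT5C was lower with ethacrynic acid in the description below and TENT5A did not pass the test. Each runs from 250 bases before the RefSeq start to 50 bases after it on GRCh38.p14, at chr1:117605798-117606097 on the forward strand for TENT5C and at chr6:81752632-81752931 on the reverse strand for TENT5A. Capitals mark matches on either strand to the motifs named after the sequences.
TENT5C promoter: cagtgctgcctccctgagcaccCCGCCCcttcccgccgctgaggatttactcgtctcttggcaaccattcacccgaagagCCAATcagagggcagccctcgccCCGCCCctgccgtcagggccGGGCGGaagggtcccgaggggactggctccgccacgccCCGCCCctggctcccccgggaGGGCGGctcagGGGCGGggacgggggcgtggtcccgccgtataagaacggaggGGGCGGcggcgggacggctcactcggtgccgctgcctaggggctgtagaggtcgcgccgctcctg
TENT5A promoter: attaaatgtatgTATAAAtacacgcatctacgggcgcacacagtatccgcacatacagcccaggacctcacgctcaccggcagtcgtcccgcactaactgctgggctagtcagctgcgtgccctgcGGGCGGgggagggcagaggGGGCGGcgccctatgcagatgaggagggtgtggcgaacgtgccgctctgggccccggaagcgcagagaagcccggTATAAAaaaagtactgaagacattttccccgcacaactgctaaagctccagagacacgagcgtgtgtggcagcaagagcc

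The motifs searched were the TATA box TATAAA, the CCAAT box CCAAT, the GC box GGGCGG, the E-box CACGTG, the AP-1 site TGANTCA and the core of the antioxidant response element, TGACNNNGC, where N is any base. A stretch can match both of the last 2, and the E-box and the AP-1 site read the same on both strands. The TENT5C window held 7 GC boxes and 1 CCAAT box, and the TENT5A window held 2 GC boxes and 2 TATA boxes. Neither held the E-box, AP-1 or antioxidant letters. Only exact letters were counted, so a variant such as TATAAG, which the TENT5C window holds, was not marked as a TATA box. Of all 35116 RefSeq promoter windows, 45.0% held a GC box, 34.6% a CCAAT box, 11.5% a TATA box, 7.26% an E-box, 7.71% an AP-1 site and 13.3% the antioxidant core. G and C made up 73.7% of the TENT5C window and 59.3% of the TENT5A window, and the median window had 58.7%. The table held windows for 9 of the 10 genes.

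How far reads of one relative could be counted for another was looked at in the GENCODE transcripts. The longest run of bases that any TENT5C transcript shared with TENT5B was 17 bases, and there were 2 such runs, both coding and shown in the order of their place in TENT5C.
TENT5C and TENT5B, first run: agcgctacatgtgctcc
TENT5C and TENT5B, second run: aacgagagcaccgtgtg
With TENT5A the longest shared run was 15 bases and with TENT5D 13 bases. TENT5C has no named pseudogene in this annotation, and none of its exons overlaps an exon of another gene. The longest runs were 29 bases between TENT5A and TENT5B, 25 bases between PAPOLA and PAPOLG, 17 bases between TENT4A and TENT4B, and 36 bases between PAPOLA and PAPOLB. Exons of MTPAP overlap 1626 exonic bases of the pseudogene GOLGA2P6 on the same strand and antisense and microRNA genes, and 157 exonic bases of PAPOLA lie opposite an antisense gene. No strand setting was found in the sources used here, so counts of MTPAP and PAPOLA are uncertain in that respect.

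The 6 libraries held 57516146 to 66677543 counts with ethacrynic acid and 66907158 to 68128543 with DMSO. Every ethacrynic acid library was shallower than every DMSO library (exact permutation test, two-sided p = 0.1, the smallest possible with 3 against 3). Markers of the line were present in every library, among them CD33, CD4 and the myeloid transcription factor gene SPI1, and all 10 monocytic markers summed to 1636 to 2177 CPM (counts per 1e+06 counts, scaled between libraries by TMM) with ethacrynic acid and to 1387 to 1546 CPM with DMSO. Lysozyme, LYZ, was at 656 ± 202 and 211 ± 80.8 CPM, and the macrophage marker CD68 at 149 ± 31.5 and 72.7 ± 3.76 CPM, in ethacrynic acid and DMSO libraries in that order (SD, n = 3 each; edgeR adjusted p = 0.11 and 0.059). Exons of both overlap other annotated genes. Of the 10 markers 5 had a positive and 5 a negative log2 fold change, with a median of 0.0028, and none passed. The leukocyte gene PTPRC, which encodes CD45 and is named after its values were seen, was at 146.9 ± 29.4 CPM with ethacrynic acid and 208.0 ± 22.7 CPM with DMSO (log2 fold change -0.50 ± 0.16 SE, edgeR unadjusted p = 0.014, adjusted p = 0.35). On the first principal component ethacrynic acid replicate 3 scored 93.9, and the other 5 libraries scored -36.9 to -10.4. It also carried more RNA of the 4 epithelial markers EPCAM, KRT18, KRT19 and CDH1, which summed to 240.1 CPM there, to 20.7 and 27.1 CPM in the other ethacrynic acid libraries and to 16.6 to 27.4 CPM in DMSO libraries. EPCAM was at 16.6 ± 21.1 CPM with ethacrynic acid and 3.77 ± 0.844 CPM with DMSO, and KRT18 at 36.9 ± 47.2 and 8.91 ± 2.82 CPM (n = 3 each; edgeR adjusted p = 0.42 and 0.44).

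Of 7 markers of B and plasma cells, where TENT5C is known to be abundant, TNFRSF17 and JCHAIN were at 0 counts in every library. The list summed to 14.9 to 22.2 CPM with ethacrynic acid, or to at most 15.6 CPM without replicate 3, and to 14.5 to 15.6 CPM with DMSO. In it the plasma cell marker SDC1, also an epithelial surface protein, was at 3.18 ± 3.92 and 0.472 ± 0.266 CPM, and CD79A at 1.17 ± 0.422 and 1.31 ± 0.279 CPM, with ethacrynic acid and DMSO (edgeR adjusted p = 0.37 and 0.90). The 4 T cell markers summed to 6.50 to 13.5 CPM with ethacrynic acid, or to 13.2 and 13.5 CPM without replicate 3, and to 10.5 to 12.0 CPM with DMSO. CD3G was at 0.557 ± 0.302 and 0.725 ± 0.106 CPM and CD2 at 4.70 ± 1.58 and 5.25 ± 0.452 CPM (edgeR adjusted p = 0.80 and 0.86). Of 5 erythroid markers HBA1, HBA2 and HBB were at 0 counts in every library, and the list summed to at most 0.196 CPM with ethacrynic acid and 0.111 CPM with DMSO, too little for a test of any member.

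TENT5C was at 11.9, 11.5 and 13.5 CPM in ethacrynic acid libraries and at 28.4, 32.3 and 42.4 CPM in DMSO libraries. Every ethacrynic acid library lay below every DMSO library, and the gap between the groups was wider than the range of the ethacrynic acid group. The means were 12.3 ± 1.07 CPM with ethacrynic acid and 34.4 ± 7.22 CPM with DMSO (SD, n = 3 each), a ratio of 0.358 in the fit and a log2 fold change of -1.48 ± 0.17 (SE). These are the values that brought the gene into view and they carry no test here. In RNA of a whole culture, fewer cells with the transcript and less of it per cell cannot be told apart.

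The raw counts behind these levels were 728, 646 and 870 with ethacrynic acid and 1930, 2231 and 3042 with DMSO. Counting alone gives an error of 3.39% to 3.93% in the ethacrynic acid libraries and of 1.81% to 2.28% in the DMSO libraries. If each read pair was worth 4 counts, a possibility raised by the frequency of counts of 4, these errors become 6.78% to 7.87% and 3.63% to 4.55%. The observed coefficients of variation were 8.66% with ethacrynic acid and 21.0% with DMSO. The DMSO value was above the counting error under either reading. The ethacrynic acid value, from 3 libraries, was close to the error at 4 counts per pair and cannot be told apart from it. Leaving out ethacrynic acid replicate 3, the library with the epithelial markers, gave a log2 fold change of -1.56, and that library had the highest TENT5C level of its group. Among the 11127 genes with a mean of at least 5 CPM, TENT5C had the fifth lowest log2 fold change, with 4 genes below it. That rank comes from the values by which the gene was chosen, so it is a description too.

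TENT5A is the other TENT5 gene with a substantial level. It was at 53.4, 59.0 and 67.4 CPM with ethacrynic acid and at 54.7, 64.4 and 67.9 CPM with DMSO. The groups overlapped almost completely. The means were 59.9 ± 7.03 and 62.3 ± 6.84 CPM (SD, n = 3 each), with a log2 fold change of -0.06 ± 0.12 SE, a 95% interval of -0.34 to 0.23 and an adjusted p of 0.89 in edgeR's quasi-likelihood test. TENT5B had 0, 4 and 4 counts with ethacrynic acid and 0 counts in each DMSO library, too few to test. TENT5D, the X-linked member of the family, was at 0 counts in all 6 libraries. The TENT5 mRNA of these cells was thus almost wholly TENT5A and TENT5C in the count table.

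Within the summed TENT5 counts, a quantity that needs no scaling between libraries, TENT5C made up 18.3%, 16.3% and 16.7% with ethacrynic acid and 34.2%, 33.4% and 38.4% with DMSO. The groups were far apart relative to the spread in each, at 17.1% ± 1.03 and 35.3% ± 2.70 (SD, n = 3 each). Per length of exon, TENT5C stood at 0.217 ± 0.0158 of TENT5A with ethacrynic acid and at 0.577 ± 0.0695 of it with DMSO. The sum of the TENT5 genes was 65.3, 70.5 and 80.9 CPM with ethacrynic acid and 83.1, 96.7 and 110.3 CPM with DMSO. All of these rest on the same TENT5C values and are a description too.

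**Figure D1:**
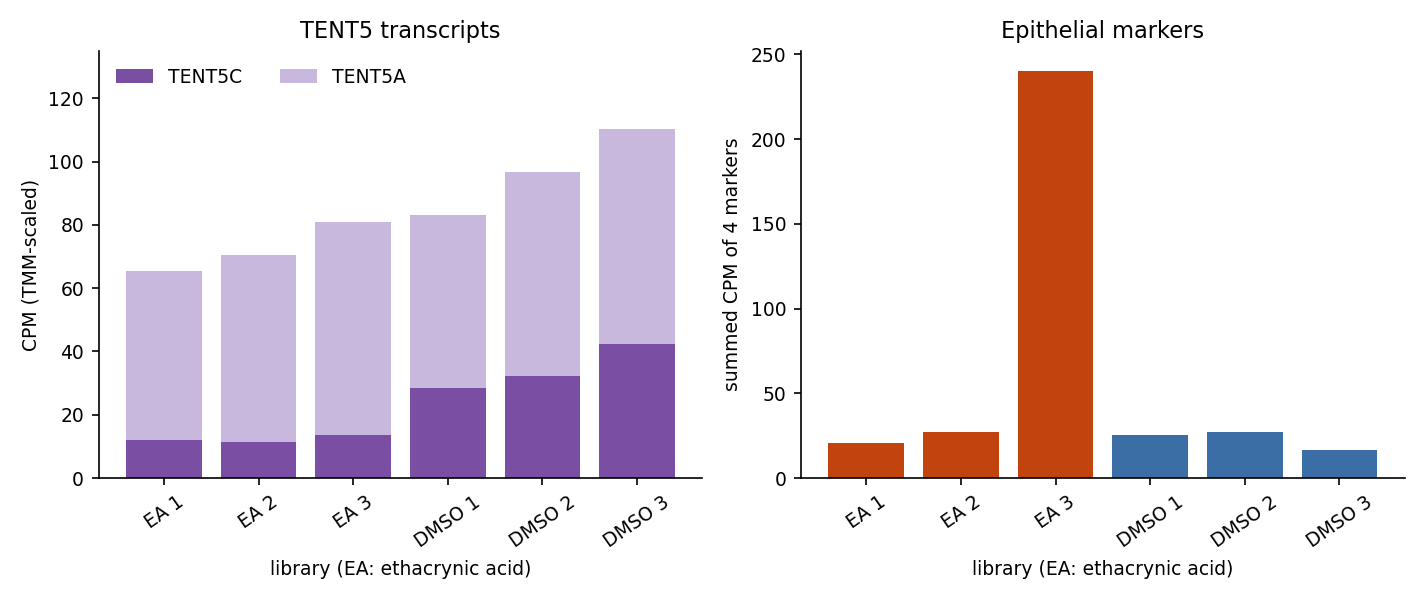
Left, TMM-scaled CPM of TENT5C (dark) and TENT5A (light) stacked for each library; right, summed CPM of 4 epithelial markers in the same libraries, ethacrynic acid (EA) before DMSO. TENT5C lies at 11.5 to 13.5 CPM in the ethacrynic acid libraries and at 28.4 to 42.4 CPM in the DMSO libraries, and the markers reach 240.1 CPM in ethacrynic acid replicate 3.

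None of the 8 relatives that could be tested passed an adjusted p of 0.05 in edgeR, where 0.265% of all genes tested did, and none had an unadjusted p under 0.05, where 11.1% of all genes did. With 8 genes, counts of 0 do not set the relatives apart from these shares. None was called by DESeq2, which called 3.63% of genes, by limma-voom or in edgeR without ethacrynic acid replicate 3 either. TENT2, also called GLD2, is a cytoplasmic polymerase that extends tails of mRNAs and some microRNAs. It was at 55.9, 66.0 and 70.4 CPM with ethacrynic acid and at 71.0, 72.1 and 83.2 CPM with DMSO. Its groups did not overlap, by a margin of less than 1 CPM, and it was the only one of the 8 relatives of which that was so, against 17.6% of all genes tested. The log2 fold change was -0.23 ± 0.12 SE, with a 95% interval of -0.50 to 0.03 and an adjusted p of 0.50. Without ethacrynic acid replicate 3 it was -0.31 ± 0.13 SE (adjusted p = 0.28).

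TENT4A and TENT4B are polymerases of nuclear RNA surveillance that can also insert other nucleotides into mRNA tails and so slow their removal. TENT4A was at 30.1 ± 0.306 CPM with ethacrynic acid and 31.2 ± 3.42 CPM with DMSO (SD, n = 3 each), with a log2 fold change of -0.05 ± 0.11 SE and an interval of -0.31 to 0.20 (adjusted p = 0.88). Its ethacrynic acid libraries were nearly alike and lay inside the DMSO range. TENT4B was at 12.8 ± 1.91 and 13.9 ± 0.814 CPM, with a log2 fold change of -0.12 ± 0.15 SE and an interval of -0.46 to 0.22 (adjusted p = 0.79). It was lowest in ethacrynic acid replicate 1, at 10.6 CPM, and its other libraries overlapped with the DMSO group.

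PAPOLA, the canonical polymerase that makes the initial tail of most mRNAs, was at 165.4, 187.4 and 192.7 CPM with ethacrynic acid and at 173.4, 186.8 and 180.0 CPM with DMSO. The DMSO libraries lay within the range of the ethacrynic acid libraries. Its log2 fold change of 0.01 ± 0.09 SE had the narrowest interval of the 8 relatives, -0.20 to 0.23 (adjusted p = 0.97). PAPOLG, a nuclear relative of PAPOLA, was at 18.0 ± 2.75 and 20.7 ± 2.69 CPM with ethacrynic acid and DMSO, with a log2 fold change of -0.20 ± 0.16 SE and an interval of -0.57 to 0.16 (adjusted p = 0.64).

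MTPAP builds the tails of mitochondrial mRNAs. It was at 24.8 ± 2.47 CPM with ethacrynic acid and 24.4 ± 1.99 CPM with DMSO, with a log2 fold change of 0.02 ± 0.12 SE and an interval of -0.25 to 0.30 (adjusted p = 0.96). The signs of the log2 fold changes of PAPOLA and MTPAP turned under total count scaling, to -0.06 and -0.05. TUT7 adds uridines to short-tailed mRNAs and to microRNA precursors, a role it shares with TUT4. It was at 13.9 ± 2.50 and 16.6 ± 2.60 CPM with ethacrynic acid and DMSO, with a log2 fold change of -0.25 ± 0.18 SE and an interval of -0.67 to 0.16 (adjusted p = 0.62). Its libraries ran from 11.1 to 16.0 CPM and from 13.6 to 18.3 CPM, overlapping over much of both ranges.

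Over the 8 relatives the log2 fold changes ran from -0.25 to 0.02 with a median of -0.09, and 6 were negative. The median over all genes tested was -0.00035. The outermost bounds of the 95% intervals were ratios of 0.630 and 1.23. Each interval is that of a single gene and rests on a spread between libraries that may be technical. Ethacrynic acid replicate 1 was the lowest of its group for 7 of the 9 genes tested, and DMSO replicate 1 for 7 as well. TENT5C did not share the first of these, since its lowest ethacrynic acid library was replicate 2. The same shares over all genes tested were not taken, so these counts are not read as a trait of the set.

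**Figure D2:**
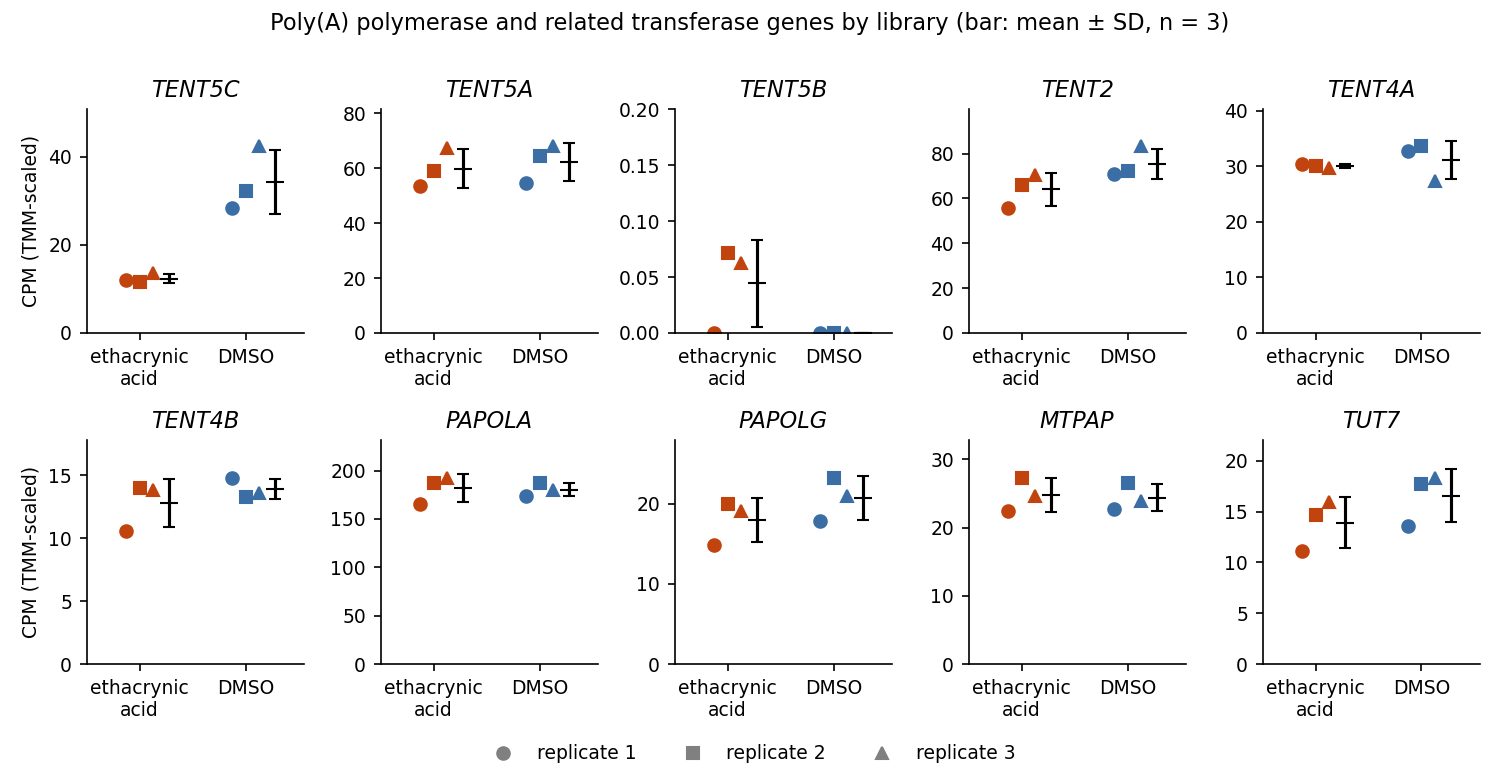
TMM-scaled CPM of the 10 genes in each library, with ethacrynic acid left of DMSO, one marker shape per replicate number, and bars for the mean ± SD (n = 3 each); each panel has its own scale from 0. The groups are apart for TENT5C and, narrowly, for TENT2, and TENT5B is near 0.

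**Figure D3:**
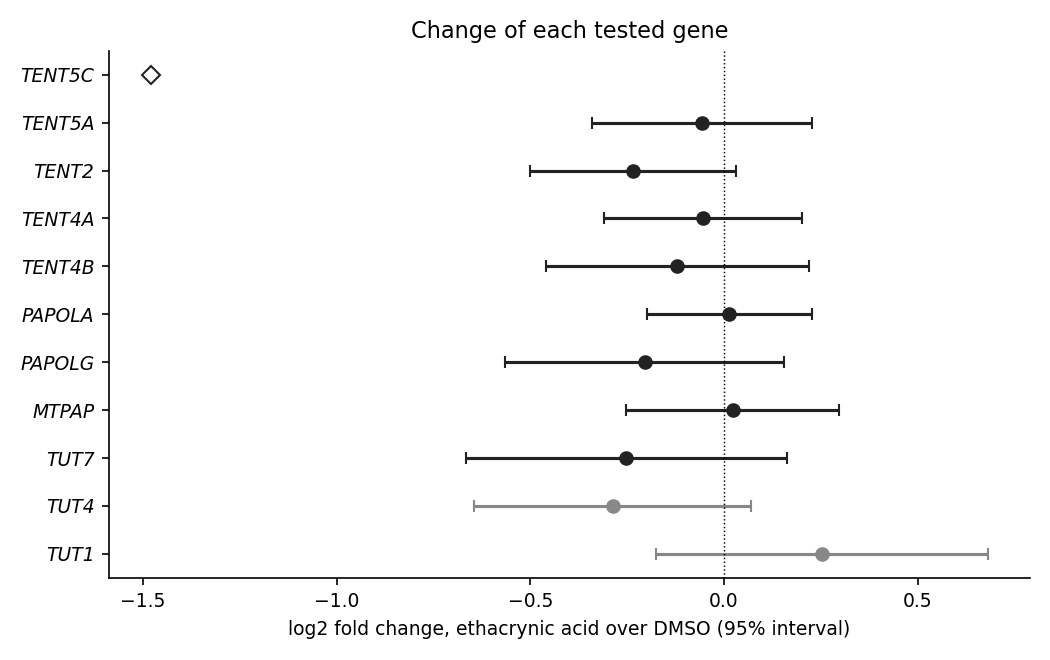
Log2 fold changes of ethacrynic acid over DMSO for the 9 genes tested and for TUT4 and TUT1 (grey), with 95% intervals; TENT5C (open diamond) is drawn without an interval because it was chosen for this difference. Every drawn interval includes 0, and TENT5C lies at -1.48.

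The relatives outside the set were looked at in the same fit. TUT4, the partner of TUT7, was at 62.8 ± 13.2 CPM with ethacrynic acid and 76.6 ± 4.82 CPM with DMSO (log2 fold change -0.29 ± 0.15 SE, interval -0.65 to 0.07, adjusted p = 0.52). TUT1, which uridylates a spliceosomal small nuclear RNA, was at 14.6 ± 2.76 and 12.2 ± 1.90 CPM (0.25 ± 0.19 SE, interval -0.17 to 0.68, adjusted p = 0.63), and its exons overlap another annotated gene. PAPOLB, known from testis, had 0 counts in every library.

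Levels of different genes were compared per kilobase of exon, with the union of annotated exons as length (TMM-scaled CPM per kilobase). With DMSO the order from the top was PAPOLA, TENT2, TENT5A, TENT5C, TENT4A, MTPAP, TUT7, PAPOLG, TENT4B and TENT5B. PAPOLA stood at 14.1 ± 0.522 and TENT2 at 13.7 ± 1.22, and their library ranges overlapped. TENT5A followed at 10.3 ± 1.13, apart from both of its neighbours. TENT5C was next at 5.98 ± 1.26, with a range that overlapped that of TENT4A at 4.60 ± 0.505. MTPAP was at 2.91 ± 0.237, TUT7 at 2.47 ± 0.387 and PAPOLG at 2.44 ± 0.316, and both neighbouring pairs among these overlapped. TENT4B was lower, at 1.71 ± 0.10.

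With ethacrynic acid TENT5C ranked 6 in place of 4, at 2.14 ± 0.185, below MTPAP at 2.96 ± 0.295 with no overlap of libraries and overlapping with PAPOLG at 2.11 ± 0.323. PAPOLA was at 14.2 ± 1.13, TENT2 at 11.6 ± 1.35, TENT5A, whose range overlapped that of TENT2, at 9.90 ± 1.16 and TENT4A at 4.43 ± 0.0451. TUT7 was at 2.07 ± 0.373 and TENT4B at 1.57 ± 0.234, overlapping with its neighbour TUT7. Of the summed per-length level of all 10 genes TENT5C held 4.20% ± 0.357 with ethacrynic acid and 10.2% ± 1.54 with DMSO. Among the 13976 protein-coding genes tested it stood at the 35.2 percentile with ethacrynic acid and at the 56.0 percentile with DMSO, whereas TENT5A stood at the 68.5 and 70.1 percentiles. With the longest transcript as length, TENT5C ranked 8 with ethacrynic acid and again 4 with DMSO. PAPOLA moved furthest, to 40.2 ± 3.20 with ethacrynic acid and 39.8 ± 1.47 with DMSO. By that length the library ranges of PAPOLA and TENT2 no longer overlapped with DMSO. The shares of the summed level and the percentiles were taken with the union of exons only, and they depend on that choice.

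**Figure D4:**
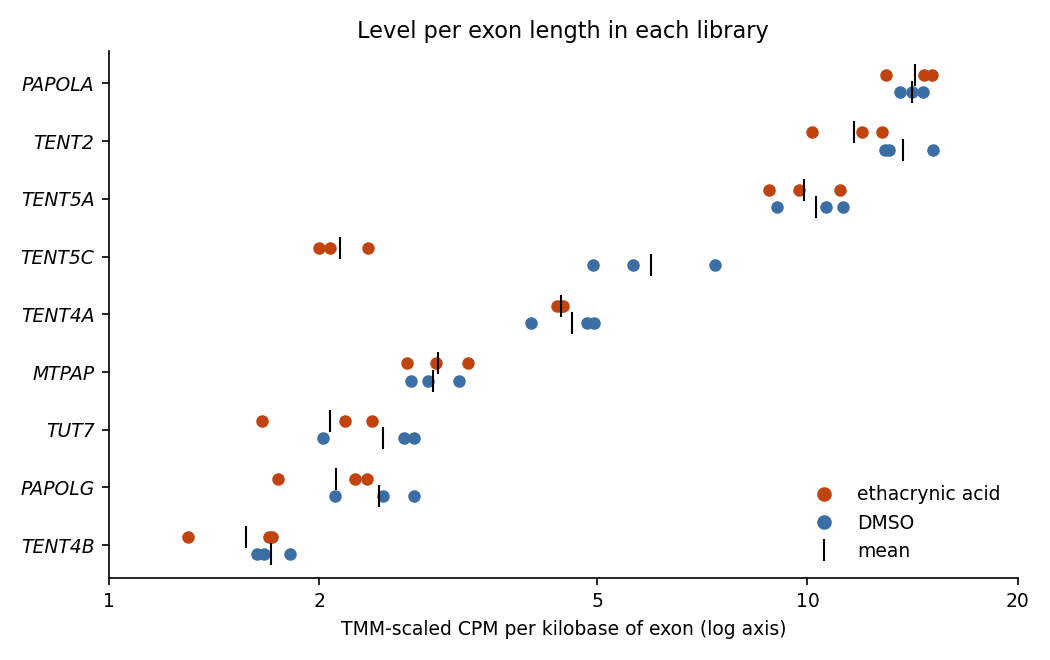
TMM-scaled CPM per kilobase of exon (log axis) of each gene in each library, ethacrynic acid above DMSO within a row, with a tick at the mean of 3 libraries; TENT5B, near 0, is left out. TENT5C averages 2.14 with ethacrynic acid, among PAPOLG and TUT7, and 5.98 with DMSO, between TENT5A and TENT4A.

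The genes beside TENT5C on chromosome 1 were compared in the same fit. MAN1A2, a Golgi mannosidase gene that ends 77061 bases before it, was at 38.3 ± 10.4 CPM with ethacrynic acid and 46.0 ± 6.03 CPM with DMSO (log2 fold change -0.26 ± 0.21 SE, adjusted p = 0.65). GDAP2, which lies on the other strand with its 3′ end 235112 bases after TENT5C, was at 15.3 ± 1.59 and 16.6 ± 1.76 CPM (-0.12 ± 0.14 SE, adjusted p = 0.77). The divergent noncoding transcript TENT5C-DT, which begins 163 bases before the annotated start of TENT5C, had 2 counts in DMSO replicate 1 and 0 in the other 5 libraries.

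Across the 6 libraries the genes whose log2 CPM followed TENT5C most closely, of 11126 with a mean of at least 5 CPM, were TNS1, SCFD1, MEIS1 and VLDLR-AS1. Their Pearson correlations were 0.997 for TNS1, 0.996 for SCFD1, 0.995 for MEIS1 and 0.994 for VLDLR-AS1, as a description over 6 libraries that include both groups and share scaling. TNS1, which encodes the adhesion protein tensin, was at 12.7 ± 0.366 CPM with ethacrynic acid and 17.7 ± 1.60 CPM with DMSO. SCFD1, a vesicle transport gene, was at 32.5 ± 0.328 and 35.7 ± 0.947 CPM, so a close pattern went with a small difference in level. MEIS1, a homeobox gene of haematopoietic progenitors, was at 67.8 ± 4.81 and 107.2 ± 11.1 CPM, and the antisense gene VLDLR-AS1 at 5.55 ± 0.616 and 10.6 ± 1.64 CPM (SD, n = 3 each). These 4 genes were picked by likeness to TENT5C across both groups. Their differences between the groups are therefore a description too and carry no test here. Among the relatives, the correlation with TENT5C was highest for TENT2, at 0.80, and was 0.64 for TUT7, 0.56 for PAPOLG and 0.39 for TENT5A. The lowest was -0.09, for MTPAP. These values span both groups, so they also reflect differences between the groups, and TENT2 is the relative whose groups did not overlap. The share of all genes with correlations this high was not taken, so they are not read as shared regulation.

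Other genes, among them those of mRNA tail metabolism, endoplasmic reticulum entry and mitochondrial RNA expression, were taken in 9 lists of 140 genes. Of these genes 138 could be tested. None passed an adjusted p of 0.05 in edgeR's quasi-likelihood test, where 0.265% of all genes did, and 13 had an unadjusted p under 0.05. That is 9.42% of them, against 11.1% of all genes tested. DESeq2 called 1 of them, BTG1, where it called 3.63% of genes, and none was called by limma-voom or in edgeR without ethacrynic acid replicate 3. Exons of FNDC3A, BCCIP, PABPC4, FIP1L1, EXOSC4, SKIC2 and TBRG4, all named below, overlap other annotated genes, which leaves their counts uncertain. Proteins reported to bind TENT5 enzymes were in a list of 4. FNDC3A and FNDC3B, which hold TENT5C at the endoplasmic reticulum, were at 79.1 ± 23.1 and 64.7 ± 19.8 CPM with ethacrynic acid and at 94.7 ± 12.7 and 48.1 ± 8.24 CPM with DMSO. Their log2 fold changes were -0.26 ± 0.21 and 0.43 ± 0.23 SE (adjusted p = 0.67 and 0.52). The centriole kinase gene PLK4, at 28.1 ± 1.79 and 30.5 ± 3.75 CPM, and BCCIP, at 46.0 ± 5.61 and 40.4 ± 3.55 CPM, did not pass either (adjusted p = 0.73 and 0.59).

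Deadenylation genes, whose products remove tails, numbered 24, with 10 positive and a median log2 fold change of -0.04. BTG1 and BTG2, which recruit the CCR4-NOT deadenylase, had the smallest p values, at 49.6 ± 2.86 and 11.8 ± 0.378 CPM with ethacrynic acid and 39.7 ± 1.13 and 9.42 ± 0.999 CPM with DMSO. Their log2 fold changes were 0.32 ± 0.09 and 0.33 ± 0.14 SE (adjusted p = 0.28 and 0.43). DESeq2 gave BTG1 an adjusted p of 0.024, and its exons overlap another gene on each strand.

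Poly(A)-binding genes numbered 12, with 5 positive and a median of -0.07. PABPC4, a cytoplasmic poly(A)-binding protein gene, was at 296.5 ± 20.3 and 248.3 ± 15.6 CPM (0.26 ± 0.09 SE, adjusted p = 0.41), and PAIP2B, an inhibitor of such proteins, at 0.362 ± 0.213 and 0.159 ± 0.0616 CPM (adjusted p = 0.51), with ethacrynic acid and DMSO. Cleavage and polyadenylation genes numbered 17, with 6 positive and a median of -0.04. In that list FIP1L1, which brings the polymerase to the cleavage complex, was at 45.7 ± 0.992 and 52.9 ± 0.837 CPM (-0.21 ± 0.08 SE, adjusted p = 0.42). The cleavage factor NUDT21 was at 151.2 ± 17.0 and 172.2 ± 11.8 CPM (adjusted p = 0.55).

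The nuclear exosome, which degrades RNA that TENT4B-type complexes have tailed, had 18 genes with 8 positive and a median of -0.02. Its subunit genes EXOSC4 and EXOSC2 were at 28.2 ± 6.84 and 63.8 ± 3.78 CPM with ethacrynic acid and at 19.8 ± 1.54 and 54.2 ± 4.19 CPM with DMSO (adjusted p = 0.37 and 0.43). Decapping and cytoplasmic decay genes numbered 22, with 13 positive and a median of 0.03. The decapping activator gene LSM4 was at 139.9 ± 20.2 and 107.1 ± 9.59 CPM, and the exosome helicase gene SKIC2 at 79.4 ± 4.53 and 67.3 ± 0.604 CPM (adjusted p = 0.36 and 0.38).

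Genes of endoplasmic reticulum targeting and translocation, the route of the secreted proteins whose mRNAs TENT5 enzymes act on in mouse cells, numbered 23. Of these 18 were positive, where 9789 of all 19611 genes tested were, and none passed. The median was 0.16 beside -0.00035 over all genes. Summed over the list, the level was 3124, 2917 and 2768 CPM in ethacrynic acid replicates 1 to 3. In DMSO replicates 1 to 3 it was 2740, 2825 and 2642 CPM, so the groups overlapped. The signal peptidase gene SPCS2 was at 55.1 ± 4.10 and 45.6 ± 3.91 CPM and the translocon gene SEC61B at 45.6 ± 7.65 and 35.8 ± 2.59 CPM, with ethacrynic acid and DMSO (adjusted p = 0.41 and 0.42). Of 16 genes of mitochondrial RNA expression 10 were positive, with a median of 0.08. TBRG4, which stabilises mitochondrial mRNAs, was at 180.8 ± 23.9 and 150.9 ± 3.78 CPM, and the mitochondrial transcription factor gene TFB2M at 21.4 ± 0.960 and 18.1 ± 1.05 CPM (adjusted p = 0.44 and 0.45).

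**Figure D5:**
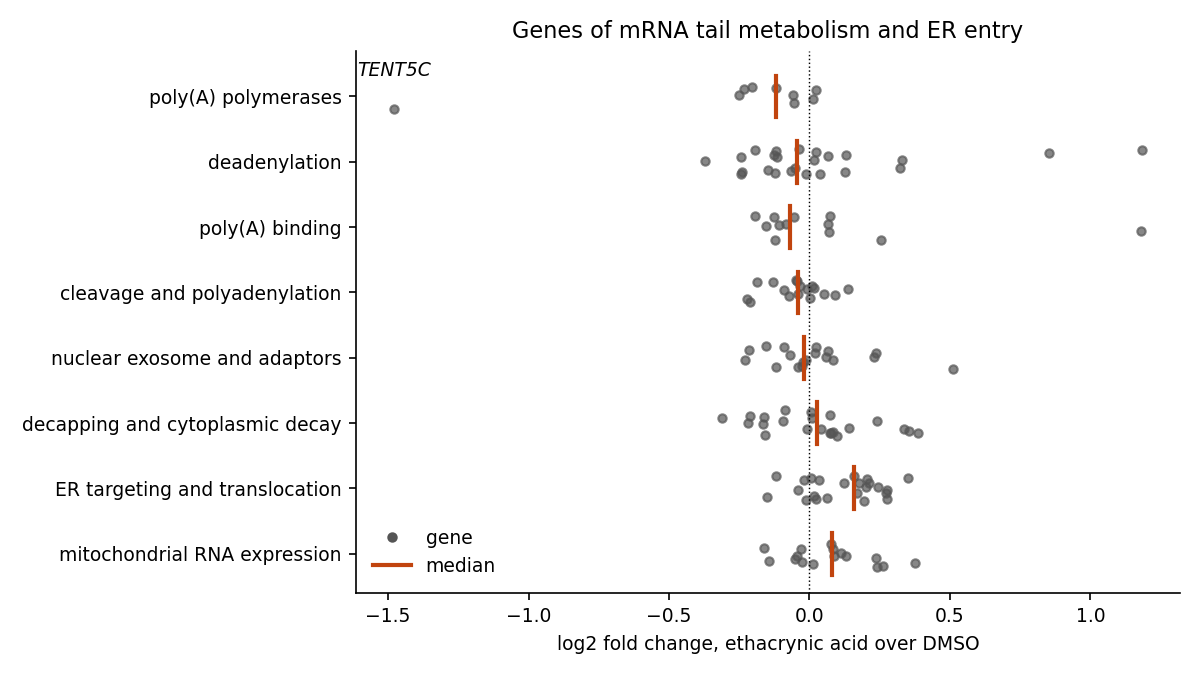
Log2 fold changes of ethacrynic acid over DMSO for every tested gene of the set (poly(A) polymerases) and of 7 lists. The lists cover mRNA tail metabolism, endoplasmic reticulum (ER) entry and mitochondrial RNA expression. Each point is a gene and each bar a median, and vertical scatter within a row has no meaning. Medians lie between -0.12 and 0.16, and TENT5C lies at -1.48.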

How the data were processed

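The members and gene lists were chosen with earlier results of these data known. The deposited table holds whole-number counts per Ensembl gene ID, not scaled between libraries. Per the labels' protocols, 1 µg of total RNA went into each library. The tools fastp, HISAT2, StringTie 1.3.4d and edgeR, with the build GRCh38, are listed in the submitters' processing notes. The sources used here do not say how reads became counts, with which annotation or strand setting. Counts of 4 were more frequent than of 3 or 5 in every library (1249, 680 and 393 genes in ethacrynic acid replicate 1), so a read pair may be worth more than 1 count.

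Symbols were matched for 61757 of 61806 IDs. Genes were kept with filterByExpr (minimum count 10, total 15), scaled by TMM and compared with group as the only term by edgeR 4.0.16 (quasi-likelihood F-test, R 4.3.3), and p-values were adjusted over all 19611 genes by Benjamini-Hochberg, with 0.05 as the threshold. Each SE is the absolute log2 fold change over the square root of F. Log2 CPM used a prior count of 2. Coordinates and lengths are from GENCODE 29 on GRCh38, and promoter sequences from RefSeq on GRCh38.p14. The test was tried on simulated counts with known changes, all larger than the estimated changes of the relatives. That trial does not show how often changes as small as theirs would be found, and no result here rests on it. Alternatives used DESeq2 1.42.0 and limma 3.58.1, other scalings and filters, counts divided by 4, the replicate number as a term and each library left out. The bias-adjusted quasi-likelihood method was added after seeing the data. Named were all members, the 2 genes with the smallest p of each list (none passed), all genes of the 4-gene family list, the nearest tested protein-coding neighbours of TENT5C and the 4 genes most like it; other names were chosen after their values were seen.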

Additional observations from a re-analysis of the deposited data

How the results depend on the processing

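The log2 fold change of TENT5C stayed between -1.60 and -1.30 over 15 alternatives, the second without DMSO replicate 3. No relative passed the threshold under any alternative. Signs near 0 turned for TENT5A without DMSO replicate 3 (0.01) and ethacrynic acid replicate 1 (0.026), and for TENT4B without ethacrynic acid replicate 1 (0.0067). PAPOLA turned under total count scaling (-0.061) and without DMSO replicate 1 (-0.0097), ethacrynic acid replicate 2 (-0.0096) or 3 (-0.035). MTPAP turned under total count scaling (-0.054) and without DMSO replicate 1 (-0.025) or ethacrynic acid replicate 2 (-0.054). With single libraries left out the log2 fold changes ranged from -0.16 to 0.026 for TENT5A, from -0.19 to 0.0067 for TENT4B, from -0.035 to 0.085 for PAPOLA and from -0.054 to 0.098 for MTPAP. The cause was not tested.

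Of the members other than TENT5C and the lists, 0 genes were called, and 1 with DESeq2 (BTG1) or with the replicate block (LSM4, edgeR adjusted p = 0.048). Over all genes 52 were called, 45 higher and 7 lower. There were 14, 14 and 0 with no filter, 96, 82 and 14 with at least 5 CPM in 3 libraries, and 598, 393 and 205 with DESeq2. With single libraries left out they ranged from 4 to 148, from 4 to 120 and from 0 to 28, the highest without ethacrynic acid replicate 3. With the replicate number as a block they were 355, 247 and 108. Same-numbered libraries had correlations of deviations of 0.16, 0.06 and 0.09. Each library correlated best with its own number, a hint of pairing from the data, but no label ties a number to a shared culture or day and the correlations were small, so the numbers were not taken as pairs. Of the 4 genes most like TENT5C by Pearson correlation, 2 were among the 36 at the highest Spearman value. TENT5B, TENT5D and PAPOLB did not pass the filter on low counts and have no test.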
